A study of Mus musculus with 26 samples.

Results

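Tuft cell genes were followed through colitis-associated tumorigenesis in 26 bulk RNA libraries of mouse colon. The group held 7 of the 35975 genes in the deposited tables: Dclk1, Trpm5, Pou2f3, Il25, Sh2d6, Gfi1b and Avil. They were chosen by name, and the estimated counts of every annotated transcript of a gene were added up in each library.

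Tuft cells are rare chemosensory cells of the intestinal epithelium. They detect luminal signals through taste-type G protein cascades that end at the cation channel TRPM5, and they are the main epithelial source of IL-25, which acts on group 2 innate lymphoid cells in the lamina propria. Their formation depends on the POU-domain factor POU2F3, and DCLK1 is the marker most often used to stain them in mouse gut.

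The libraries came from wild-type C57BL/6J male mice bought from Taconic, with a starting age of about 10 weeks, that ate a standard diet (STD) or a diet with GW3965, a synthetic agonist of the nuclear receptor LXR. In the treated groups, azoxymethane (AOM), a colon carcinogen, was given at 10 mg/kg and was followed by cycles of dextran sulfate sodium (DSS), which damages the colonic epithelium, in the drinking water. Of these cycles 1 had begun by day 22, 2 by day 43 and 3 by day 70. Day and number of DSS cycles thus cannot be told apart. Colon was taken at day 22, 43 or 70 after AOM, with 3 libraries per diet and day. The day 0 groups had neither AOM nor DSS and held 4 libraries per diet, 2 after 22 days and 2 after 43 days of the diet.

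Several features of the groups bear on what follows. The labels place the day 22 and day 43 libraries of a diet in 1 cage and the day 0 libraries of a diet in another, and each day 70 library in a separate cage. Diet and cage thus cannot be told apart at days 0, 22 and 43. No cage is shared between a treated group and its day 0 group, so treatment and cage cannot be told apart in those comparisons either. One GW3965 day 0 library (replicate 2 after 43 diet days) carries a standard diet label and was placed by its title. The study's methods speak of mice per timepoint in one place and of pooled biological replicates in another, so the p-values below measure the spread between these libraries. In bulk tissue, fewer cells of a type and less RNA per cell cannot be told apart.

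Total counts ranged from 18195345 to 41522204 per library. Scaled to these raw totals, a floor of 3 counts was 0.0722 to 0.165 CPM. All other CPM values are counts scaled to the TMM-normalised library size. On that scale 3 counts can lie outside this range, as in GW3965 day 43 replicate 1, where they were 0.176 CPM. The share of counts on 88 ribosomal protein genes was 5.33% to 6.51% at day 0, 14.4% to 18.6% at day 43 on the standard diet and 10.0% to 17.6% at day 43 on GW3965. The RNA integrity number was 10 in every day 0 library and 2.6, 8.4 and 7.8 in standard diet day 43 replicates 1, 2 and 3. A list of 14 general markers of columnar epithelium summed to between 3439 and 21280 CPM, with the lowest value in GW3965 day 70 replicate 1, where 10 skeletal muscle genes summed to 25100 CPM against at most 967 CPM in any other day 70 library.

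Tuft cell genes were a small part of this tissue. Compared per transcript length, in TPM, the median over the 26 libraries was 2.16 for Dclk1, 0.929 for Avil, 0.865 for Trpm5, 0.811 for Sh2d6, 0.174 for Pou2f3, 0.144 for Gfi1b and 0 for Il25. Over all libraries Dclk1 gathered 5103 counts, Avil 4592, Trpm5 640, Sh2d6 531, Pou2f3 237, Gfi1b 94 and Il25 19. Il25 and Gfi1b did not pass the filter on low counts, and the other 5 were tested.

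**Figure D1:**
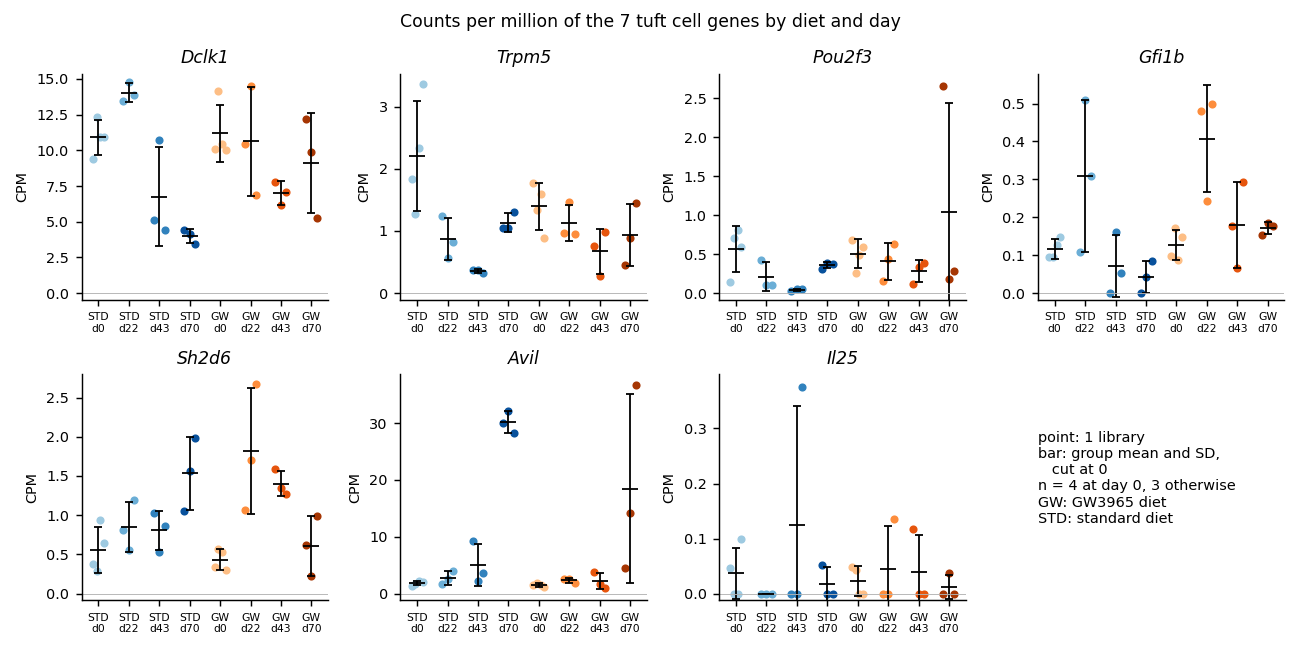
TMM-normalised CPM of the 7 tuft cell genes in each library (points), by diet and day, with the group mean and SD (bars, cut at 0). Avil is highest in the day 70 groups, whereas the lowest Dclk1 group is day 70 on the standard diet, where its 3 libraries lie between 3.47 and 4.42 CPM.

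The tuft cell genes did not move together. At day 70 on the standard diet Avil (adjusted p = 8.59e-05) and Sh2d6 (adjusted p = 0.0244) rose and Dclk1 fell (adjusted p = 0.00069, edgeR quasi-likelihood F-test over all genes), so that 3 of the 5 tested genes passed a false discovery rate of 0.05, where 33.2% of all 17063 genes tested did. On GW3965, 1 gene rose at day 22 (Sh2d6, background 12.6%) and 1 at day 70 (Avil, background 21.8%). With edgeR 0 of the 5 passed at day 22 on the standard diet (background 7.73%). At an unadjusted p under 0.05 there were 2 of the 5, against 3570 of all 17063 genes, and limma voom called 2, Dclk1 and Trpm5. At day 43 on GW3965 0 passed (background 0.938%, 0 by DESeq2 or voom), with 0 unadjusted against 2324 of all genes. At day 43 on the standard diet 0 passed as well (0 unadjusted, 0 by DESeq2 or voom), in a comparison in which edgeR called 0% of all genes, with 1369 at an unadjusted p under 0.05, 212 called by DESeq2 and 0 by limma voom.

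**Figure D2:**
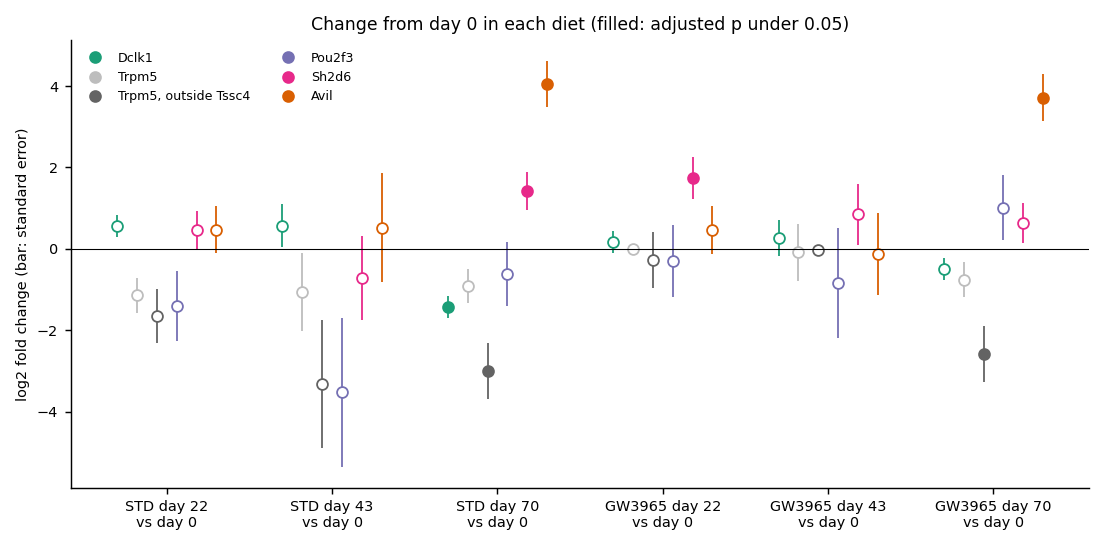
Log2 fold change of each tested gene against day 0 of the same diet (edgeR, bars are the SE, filled points have an adjusted p under 0.05), with Trpm5 also counted from its transcripts outside Tssc4. No bar is drawn for points within 0.05 of 0. These are Trpm5 at GW3965 day 22 (SE 0.895) and Trpm5 outside Tssc4 at GW3965 day 43 (SE 1.73). Avil lies at 4.05 and 3.71 at day 70, and Trpm5 outside Tssc4 at -3.01 and -2.59.

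The promoter windows of the genes with the clearest changes are given for reference, and those of Dclk1 because its counts divided between 2 annotated starts. They are the 250 bases before a RefSeq start in the GRCm38.p6 assembly, written 5′ to 3′ on the strand of the gene, with 2 kinds of motif in capitals: E-boxes (CANNTG), the sites of basic helix-loop-helix factors, and 7 letters of the octamer bound by POU-domain factors, either ATGCAAA, its beginning, or TGCAAAT, its end. Of the 7 genes, 5 had such windows, and Pou2f3 and Il25 are named only.
Dclk1, upstream start, chr3:55242114-55242363, plus strand: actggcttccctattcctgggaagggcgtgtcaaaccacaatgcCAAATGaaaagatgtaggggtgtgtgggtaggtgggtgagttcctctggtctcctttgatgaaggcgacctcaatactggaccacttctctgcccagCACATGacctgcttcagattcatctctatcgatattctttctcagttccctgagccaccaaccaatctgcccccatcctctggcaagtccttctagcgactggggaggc
Dclk1, downstream start, chr3:55461478-55461727, plus strand: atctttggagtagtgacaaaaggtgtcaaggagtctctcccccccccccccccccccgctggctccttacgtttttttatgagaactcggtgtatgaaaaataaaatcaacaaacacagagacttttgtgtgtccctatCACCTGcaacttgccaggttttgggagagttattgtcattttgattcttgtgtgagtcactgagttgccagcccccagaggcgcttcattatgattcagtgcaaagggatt
Trpm5, chr7:143094643-143094892, minus strand: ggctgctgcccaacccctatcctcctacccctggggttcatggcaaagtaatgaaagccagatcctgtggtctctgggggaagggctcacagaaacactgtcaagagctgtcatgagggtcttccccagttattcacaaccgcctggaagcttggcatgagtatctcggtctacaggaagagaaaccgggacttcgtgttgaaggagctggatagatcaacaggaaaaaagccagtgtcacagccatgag
Avil, chr10:127000459-127000708, plus strand: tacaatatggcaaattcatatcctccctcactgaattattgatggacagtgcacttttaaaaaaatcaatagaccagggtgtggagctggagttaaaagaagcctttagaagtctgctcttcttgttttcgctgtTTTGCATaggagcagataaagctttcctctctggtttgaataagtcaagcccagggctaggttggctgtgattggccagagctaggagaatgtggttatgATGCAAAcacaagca
Both strands were searched in 32851 promoters of this length. The whole octamer (ATGCAAAT or ATTTGCAT) was in 1.60% of them and in 0 of the 6 windows of tuft cell genes. The 7-letter forms, searched after the whole octamer had given no match, were in 6.02% of promoters, and Avil held 2 of them, 115 and 15 bases before the start. E-boxes were in 66.2% of promoters, with 2 in the upstream window of Dclk1, 1 in its downstream window and none in those of Trpm5 and Avil.

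Dclk1 encodes a microtubule-associated kinase and lies on chromosome 3 at 55242364 to 55539068, plus strand, of GRCm38. Its CPM at day 0 on the standard diet was 9.37, 12.4, 10.9 and 10.9, and at day 70 it was 4.42, 4.13 and 3.47. The day 70 libraries were all below the day 0 libraries, which held for 19.2% of all genes tested. The fall was 1.43 on the log2 scale (SE 0.269, edgeR adjusted p = 0.00069). The mean CPM was 4.005 ± 0.488 (SD, n = 3) against 10.9 ± 1.22 (SD, n = 4).

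Dclk1 is known from neurons as well, and a list of 13 enteric neuron and glia genes, all with counts in every group, summed to 67.2 to 128 CPM at day 0 and 25.7 to 38.4 CPM at day 70 on the standard diet. On GW3965 the list summed to 72.9 to 128 CPM at day 0 and to 86.6, 36.3 and 59.6 CPM in day 70 replicates 1, 2 and 3. The part of these cells in the Dclk1 values was not tested.

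Other lists moved at day 70 on the standard diet too, where 33.2% of all 17063 genes tested passed (3087 higher and 2585 lower). All 8 smooth muscle genes fell (median log2 fold change -2.56), and their sum was 8416 to 24120 CPM at day 0 and 1648 to 3604 CPM at day 70. Of the epithelial lists, 7 of 12 colonocyte genes fell and 1 rose (median -3.22), 7 of 12 enteroendocrine genes fell (median -1.12), and 3 of 10 goblet cell genes fell and 3 rose. The general columnar epithelium list, by contrast, summed to 7927 to 14710 CPM at day 0 and 9537 to 21280 CPM at day 70. The part of these cells in the Dclk1 values was not tested either.

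On GW3965 the Dclk1 groups of days 0 and 70 overlapped. The day 0 libraries had 10.1, 14.2, 10.5 and 10.04 CPM, and the day 70 libraries 12.2, 9.87 and 5.30 CPM. The log2 fold change was -0.51 (SE 0.270) and did not pass (edgeR adjusted p = 0.189). At day 22 the standard diet libraries had 13.5, 14.8 and 13.9 CPM, all above their day 0 libraries, as in 15.9% of all genes tested. The log2 fold change of 0.56 (SE 0.265) missed the threshold after adjustment (edgeR adjusted p = 0.228, unadjusted under 0.05).

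At day 43 the Dclk1 values hung on the ribosomal correction. The CPM was 5.16, 10.75 and 4.39 on the standard diet and 7.81, 6.15 and 7.10 on GW3965, and 5 of these 6 libraries were below every day 0 library of their diet. On GW3965, where every library was, 26.6% of all genes tested were lower without overlap. With the ribosomal percentage in the model the log2 fold change on the standard diet was 0.57 (SE 0.536, edgeR adjusted p = 0.916), and without it -0.69 (SE 0.300, adjusted p = 0.0559). Neither passed, and their signs were opposite.

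Dclk1 transcripts start mainly at 2 places. The upstream starts give proteins with the doublecortin domains that bind microtubules, and the downstream starts give shorter forms without them. Of all Dclk1 counts 65.8% were assigned to the 5 upstream transcripts and 33.9% to the 7 downstream ones. The most abundant transcript was Dclk1-203, with 7 exons and 2405 counts.

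The upstream share was 74.9% ± 8.91 (SD, n = 4) at day 0 on the standard diet and 77.9% ± 14.2 (SD, n = 3) at day 70. At day 43 it was 2.41%, 22.8% and 0% on the standard diet and 47.1%, 0% and 64.0% on GW3965. All of these were below the lowest day 0 library, at 67.6%. The RNA integrity number was 2.6 to 9.3 in those 6 libraries. Another 6 libraries, with integrity numbers of 9.1 to 10, were below 67.6% as well. They were standard diet day 22 replicate 3 (64.9%) and day 70 replicate 3 (62.0%), GW3965 day 22 replicates 1, 2 and 3 (67.1%, 66.6% and 32.1%) and GW3965 day 70 replicate 3 (43.0%). The part of RNA integrity in the share was not tested.

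**Figure D3:**
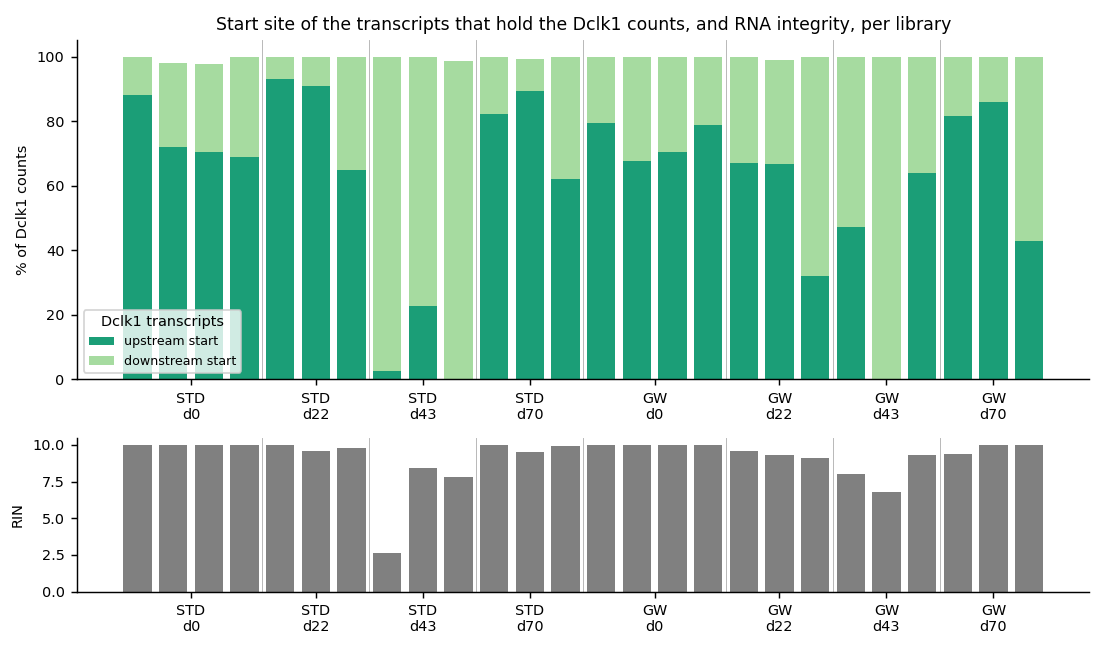
Percentage of Dclk1 estimated counts in each library on transcripts with an upstream or downstream start (stacked bars), with the RNA integrity number (RIN) of the library beneath. The upstream share is at or above 67.6% in every day 0 library and is 0% in standard diet day 43 replicate 3 and GW3965 day 43 replicate 2.

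The fall of Dclk1 at day 70 on the standard diet was also read from parts of the gene, a choice made after the values had been seen. Counted from downstream starts alone, Dclk1 fell by 1.69 on the log2 scale (edgeR adjusted p = 0.0264), whereas from upstream starts alone the log2 fold change was -1.23 and did not pass (SE 0.669, adjusted p = 0.164). The pair of abundant transcripts that share an early end, Dclk1-203 and Dclk1-212, fell by 1.05 (adjusted p = 0.0187) and the 13 others by 1.97 (adjusted p = 0.0003). Of these 13, Dclk1-206 and Dclk1-214, with 8 counts and 1 count in all, end before that pair and the rest after it. On the standard diet the share of the early-ending pair was 51.4% ± 7.55 (SD, n = 4) at day 0 and 67.1% ± 1.84 (SD, n = 3) at day 70. Its means at days 22 and 43 were 68.15% and 75.3%. On GW3965 the share was 47.6% ± 5.45 (SD, n = 4) at day 0 and 68.0% ± 8.06 (SD, n = 3) at day 70. Its means there at days 22 and 43 were 64.1% and 69.7%. The mean share was thus above day 0 at every treated day, not at day 70 alone. On GW3965 the 13 others fell by 1.28 at day 70 (SE 0.329, edgeR adjusted p = 0.00902), although the whole gene did not pass.

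Avil encodes advillin, an actin-binding protein of the villin family that is known from sensory neurons as well as from tuft cells. It lies on chromosome 10 at 127000709 to 127020994, plus strand, and its last exons face those of Tsfm on the other strand. On the standard diet Avil had 1.37, 1.65, 2.17 and 2.03 CPM at day 0 and 30.1, 32.2 and 28.3 CPM at day 70. The groups were far apart, in a comparison where 23.9% of all genes tested were higher without overlap. The rise was 4.05 on the log2 scale (SE 0.570, edgeR adjusted p = 8.59e-05), with a ratio of the mean CPM of 16.7.

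On GW3965 Avil rose as well, with a wide spread. The day 0 libraries had 1.57, 1.86, 1.46 and 1.09 CPM, and the day 70 libraries 4.45, 14.2 and 36.8 CPM. Each day 70 library was above each day 0 library, as in 18.2% of all genes tested. The log2 fold change of Avil was 3.71 (SE 0.575, edgeR adjusted p = 0.000247). Without replicate 3, the highest, it was 2.70 (adjusted p = 0.00316).

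Before day 70 Avil did not pass the test on either diet. The day 22 libraries had 1.61, 2.65 and 3.98 CPM on the standard diet and 2.57, 2.59 and 1.81 CPM on GW3965. At day 43 it had 9.17, 2.14 and 3.59 CPM on the standard diet, the 9.17 being the library with an integrity number of 2.6, and 3.76, 1.69 and 1.03 CPM on GW3965. The transcript Avil-201, with 20 exons, held 4456 of the 4592 Avil counts, and Tsfm had 18.9 ± 4.33 CPM (SD, n = 4) at day 0 and 26.95 ± 1.32 CPM (SD, n = 3) at day 70 on the standard diet.

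Markers of other cells were measured beside Avil. The enteric neuron and glia list was lower, at 25.7 to 38.4 CPM, in the standard diet day 70 libraries in which Avil was higher. A list of 10 genes of stratified epithelium, with Krt6a at 0 in both day 0 groups, summed to 6.42 to 12.8 CPM at day 0 and 3427 to 4988 CPM at day 70 on the standard diet. In GW3965 day 70 replicates 1, 2 and 3 it summed to 20690, 23.2 and 13820 CPM. Avil in replicate 2, where that sum was 23.2 CPM, was 14.2 CPM, against at most 2.17 CPM in any day 0 library. At day 43, when Avil had 1.03 to 9.17 CPM, the list summed to 519 to 1792 CPM on the standard diet and 193 to 4374 CPM on GW3965. The part of these cells in the Avil values was not tested.

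**Figure D4:**
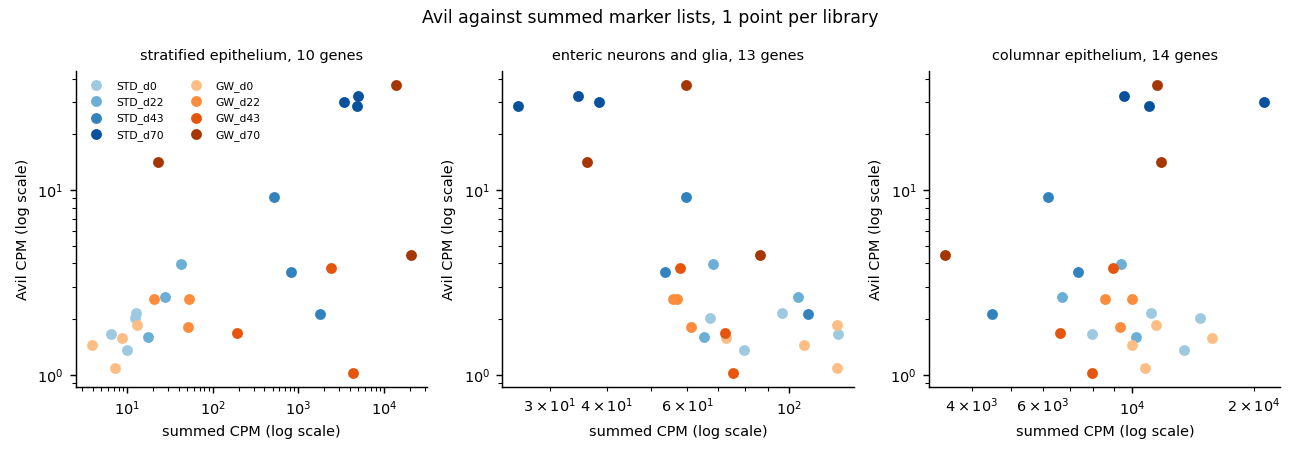
Avil CPM of each library against the summed CPM of 10 stratified epithelium genes, 13 enteric neuron and glia genes and 14 columnar epithelium genes (log axes). The 3 standard diet day 70 libraries lie at 28.3 to 32.2 CPM of Avil and at 25.7 to 38.4 CPM of the neuron and glia list, and GW3965 day 70 replicate 1 has the lowest columnar epithelium sum, 3439 CPM.

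Trpm5, the channel at the end of the taste cascade, lies on chromosome 7 at 143069153 to 143094642, minus strand. The gene Tssc4 is on the opposite strand at 143069249 to 143071093, inside the 3′ part of the Trpm5 locus, and whether the counting used strand is not given in the sources used here. The short transcript Trpm5-206, with 5 exons and 726 bases, overlaps Tssc4 and held 229 of the 640 Trpm5 counts. Summed over all transcripts, Trpm5 had 2.204 ± 0.889 CPM (SD, n = 4) at day 0 and 1.135 ± 0.151 CPM (SD, n = 3) at day 70 on the standard diet. This was a log2 fold change of -0.91 (SE 0.414) that did not pass after adjustment (edgeR adjusted p = 0.0951), although it passed with limma voom (-0.85, adjusted p = 0.041) and with an epithelial score in the model (-1.01, adjusted p = 0.0355).

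Counted from the transcripts that do not overlap Tssc4, Trpm5 fell at day 70 on both diets. This split was made after the values had been seen. On the standard diet these transcripts had 33, 23, 50 and 61 counts in the 4 day 0 libraries and 2, 3 and 10 counts at day 70. The groups did not overlap, and in CPM 19.2% of all genes tested were lower without overlap. The log2 fold change of these transcripts was -3.01 (SE 0.693, edgeR adjusted p = 0.00288), and -4.004 without replicate 3 of day 70.

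On GW3965 they had 36, 27, 34 and 9 counts at day 0 and 2, 10 and 7 counts at day 70. The lowest day 0 library, with 9 counts, is the one with the standard diet label, and it was the only one that the day 70 range reached. The log2 fold change was -2.59 (SE 0.697, edgeR adjusted p = 0.0121). All 14 fits that left out a day 0 or day 70 library kept both calls, with adjusted p up to 0.0208 on the standard diet and 0.0417 on GW3965, and limma voom did not pass the GW3965 fall (-2.28, adjusted p = 0.119).

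The transcript that overlaps Tssc4 went the other way. It had 4 to 7 counts per library at day 0 and 18 to 21 at day 70 on the standard diet, where it made up 12.9% ± 3.34 (SD, n = 4) and 81.8% ± 11.99 (SD, n = 3) of all Trpm5 counts. Tssc4 itself was at 18.8 ± 2.66 CPM (SD, n = 4) at day 0 and 32.4 ± 1.77 CPM (SD, n = 3) at day 70. Because that transcript is short, the TPM of Trpm5 was higher at day 70, at 2.37 to 2.77 against 0.771 to 2.00 at day 0, while its long transcripts were lower.

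**Figure D5:**
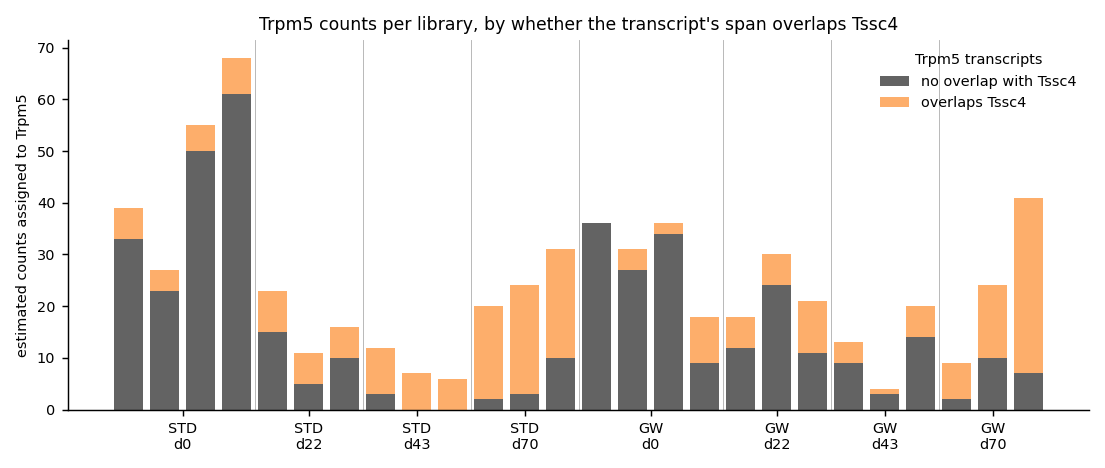
Estimated Trpm5 counts of each library from transcripts outside Tssc4 and from the transcript that overlaps it (stacked bars). The part outside Tssc4 is 23 to 61 counts in the standard diet day 0 libraries and 2 to 10 in the day 70 libraries of both diets.

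Before day 70 Trpm5 outside Tssc4 did not pass the test on either diet. The log2 fold change at days 22 and 43 was -1.64 (SE 0.658) and -3.33 (SE 1.57) on the standard diet. On GW3965 it was -0.27 (SE 0.678) and -0.03 (SE 1.73). The day 43 values come from the model with the ribosomal term. For all Trpm5 transcripts at day 43 on GW3965 the log2 fold change was -0.09 with that term and -1.04 without it, and neither passed. At day 22 Trpm5 outside Tssc4 had 15, 5 and 10 counts on the standard diet and 12, 24 and 11 on GW3965. At day 43 it had 3, 0 and 0 counts on the standard diet, and all 3 libraries were at or under the floor of 3 counts. On GW3965 day 43 it had 9, 3 and 14 counts, with 1 of the 3 libraries at the floor.

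Sh2d6, which encodes an SH2-domain adaptor protein, lies on chromosome 6 at 72513641 to 72521707, minus strand. On GW3965 it had 0.344, 0.563, 0.529 and 0.298 CPM at day 0, from 6 to 13 counts, and 1.07, 1.71 and 2.67 CPM at day 22. The day 22 libraries were all higher, as in 25.2% of all genes tested. The rise of Sh2d6 was 1.75 on the log2 scale (SE 0.512, edgeR adjusted p = 0.0292). The call was lost (adjusted p = 0.053) with no filter on low counts, and in 7 fits that each left out 1 library: GW3965 day 22 replicate 2 or 3, GW3965 day 43 replicate 2 or 3, GW3965 day 0 replicate 1 after 22 diet days, or GW3965 day 0 replicate 1 or 2 after 43 diet days. The highest adjusted p among these was 0.101.

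On the standard diet Sh2d6 rose at day 70. It had 0.377, 0.283, 0.936 and 0.644 CPM at day 0 and 1.05, 1.57 and 1.99 CPM at day 70. The groups did not overlap, as in 23.9% of all genes tested that were higher at day 70. The rise was 1.42 on the log2 scale (SE 0.465, edgeR adjusted p = 0.0244), and the call was lost without day 70 replicate 2 or 3 or without either day 0 replicate after 22 diet days, with adjusted p up to 0.0914. On GW3965 the day 70 libraries had 0.613, 0.221 and 0.989 CPM and overlapped with day 0 (log2 fold change 0.63, SE 0.494, adjusted p = 0.391).

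Pou2f3, the master regulator of the tuft cell lineage, lies on chromosome 9 at 43123939 to 43210369, minus strand, and did not pass the test in any comparison. It had 3, 15, 19 and 12 counts at day 0 and 6, 9 and 9 at day 70 on the standard diet. At day 43 on that diet each library had 1 count, against 2, 5 and 8 counts on GW3965. The 2 diets did not overlap at day 43, where 6.73% of all genes tested were higher on GW3965 without overlap. The difference in Pou2f3 did not pass (edgeR adjusted p = 0.557).

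GW3965 day 70 replicate 1 stood apart, with 52 Pou2f3 counts (2.66 CPM) where the other 25 libraries had 1 to 19. It is the library with the largest sums of skeletal muscle (25100 CPM) and stratified epithelium genes (20690 CPM) and the lowest columnar epithelium sum (3439 CPM). Pou2f3 is also known from keratinocytes of stratified epithelium. Replicate 3 of the same group, with a stratified epithelium sum of 13820 CPM, had 8 Pou2f3 counts (0.283 CPM), and the part of these cells in the value of replicate 1 was not tested.

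Gfi1b, a zinc-finger repressor of tuft cells and of the erythroid and megakaryocyte lineages, lies on chromosome 2 at 28609450 to 28621982, minus strand. It had 2 to 4 counts in each day 0 library. At day 22 it had 2, 10 and 6 counts on the standard diet and 9, 5 and 11 on GW3965. All 3 of those GW3965 libraries were above all 4 day 0 libraries, as in 25.2% of all genes tested. When the filter was left out, the log2 fold change on GW3965 was 1.82 (SE 0.847) and did not pass after adjustment (edgeR adjusted p = 0.254). A list of 14 erythroid and megakaryocyte genes summed to 234 to 702 CPM at day 0 and 620 to 935 CPM at day 22 on GW3965, with Treml1 at 0 at day 0, and its part in the Gfi1b counts was not tested.

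Il25, the cytokine that links tuft cells to type 2 immunity, lies on chromosome 14 at 54932695 to 54935837, plus strand. It had no count in 17 of the 26 libraries. Scaled to raw total counts, a count of 0 allows up to 0.0722 to 0.165 CPM, depending on the library. These limits are not on the TMM-normalised scale of the other CPM values. The highest value was 7 counts (0.375 CPM), in standard diet day 43 replicate 3, whose 2 companions had 0. The other 8 libraries with counts had 1 to 3 each, and no difference between groups was detectable at this depth.

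Diet was compared at each day. Of the 5 tested genes 0 passed at day 0, where 0.0293% of all genes did, 0 at day 22 (0.135%), 0 at day 43 (0.0293%) and 0 at day 70 (1.83%). At an unadjusted p under 0.05 there were 0, 0, 1 and 2 (edgeR), against 331, 1700, 1476 and 3204 of all 17063 genes. DESeq2 called 0, 0, 0 and 1 of the 5 and limma voom 0 at each day. The change of the diet effect from day 0 passed for 0 of the 5 at days 22, 43 and 70, where edgeR called 0.0234%, 0% and 0% of all genes. At days 43 and 70, 1 of the 5 had an unadjusted p under 0.05, 746 and 2169 of all genes did, DESeq2 called 13 and 309 of all genes, and limma voom 1 and 1.

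The nearest to a diet difference was Dclk1 at day 70. The standard diet libraries had 3.47 to 4.42 CPM and the GW3965 libraries 5.30 to 12.2 CPM. They did not overlap, in a comparison where 10.6% of all genes tested were higher on GW3965 without overlap. The log2 difference was 0.99 in favour of GW3965 (SE 0.289, edgeR adjusted p = 0.0751). It passed when the ribosomal term was left out (1.19, adjusted p = 0.0455), with DESeq2 (0.98, adjusted p = 0.0256), and without standard diet day 43 replicate 1 or 2 or GW3965 day 70 replicate 3. It did not pass without the filter on low counts (0.98, edgeR adjusted p = 0.133) or with limma voom. Counted from upstream starts, downstream starts, the early-ending pair or the 13 others alone, it did not pass either (adjusted p from 0.124 to 0.999). Of the 13 enteric neuron and glia genes, 4 were higher on GW3965 at day 70 and 0 lower (median log2 difference 1.48), where 1.83% of all genes passed. The part of these cells in the Dclk1 difference was not tested.

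Sh2d6 was lower on GW3965 at day 70, by 1.17 on the log2 scale (SE 0.515), and did not pass (edgeR adjusted p = 0.228). Its libraries had 1.05 to 1.99 CPM on the standard diet and 0.221 to 0.989 CPM on GW3965. Of all genes tested, 8.52% were lower on GW3965 without overlap. Avil overlapped between the diets at day 70. Trpm5 outside Tssc4 had 2 to 10 counts on each diet at that day.

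Among the 5 tested tuft cell genes, no pair correlated above 0.40 across the 26 libraries. The Pearson correlation of log2 CPM was -0.65 for Dclk1 and Avil, -0.47 for Dclk1 and Sh2d6, 0.29 for Sh2d6 and Avil, 0.23 for Dclk1 and Trpm5 and 0.40 for Trpm5 and Pou2f3. The points share library, depth and the groups themselves, and Trpm5 here includes the transcript over Tssc4. The median count was 8 for Pou2f3, 18 for Sh2d6 and 22 for Trpm5, and counting error at such counts weakens correlations. Weak correlations with these genes thus cannot tell a lack of shared change from counting error. After the group means were taken away, the values ran from -0.60 for Pou2f3 and Avil to 0.36 for Trpm5 and Avil. Dclk1 with Avil (-0.39) and with Sh2d6 (-0.41) and Sh2d6 with Avil (0.35) kept their signs, whereas Dclk1 with Trpm5 (-0.13), Trpm5 with Pou2f3 (-0.18) and Trpm5 with Sh2d6 (0.34, from -0.12) changed theirs.

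The genes whose log2 CPM was most like the mean of the 5 tested genes, outside the tuft lists and over 26 libraries, were E330009J07Rik (r = 0.86), 8030462N17Rik (0.80), Ammecr1 (0.80), Gnpat (0.79) and Senp1 (0.77). With the group means taken away they were Ints7 (0.79), Stra6 (0.77), Hist1h2bk (0.74), Ddx27 (0.71) and Nol10 (0.71). The 2 sets had no gene in common. Avil alone, a reading added after its values were seen, was close to Mex3a (0.95), Otop1 (0.94), Tubb5 (0.94) and Gata5 (0.92), and Dclk1 alone was most like Tmed8 (0.89), Igsf10 (0.87), Slco2b1 (0.87), Slc43a3 (0.86) and Gdnf (0.85).

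Other genes of the tuft cell programme were read from lists. Of 11 chemosensory genes 6 were tested, and at day 70 on the standard diet 3 fell and 0 rose, where 33.2% of all genes passed, with a median log2 fold change of -1.24 against 0.035 over all genes. They were Plcb2, the phospholipase of the taste cascade (fell by 1.76, SE 0.570, edgeR adjusted p = 0.0229), Ffar3, a receptor for short-chain fatty acids (fell by 4.997, adjusted p = 0.00581), and Rgs13, a regulator of G protein signalling (fell by 3.29). On GW3965 0 of the 6 passed at day 70 (background 21.8%). Between the diets at day 70, 1 of the 6 passed (background 1.83%). It was Plcb2, higher on GW3965 than on the standard diet by 2.46 (SE 0.624, edgeR adjusted p = 0.048). Plcb2 and Rgs13 are also expressed by leukocytes, and a list of 10 leukocyte genes summed to 253 to 615 CPM at day 70 on the standard diet and 626 to 1476 CPM on GW3965, its part not tested.

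All 7 genes of eicosanoid synthesis, the lipid output of tuft cells, were tested. At day 70 on the standard diet Ptgs1 (by 0.77) and Hpgds (by 1.13, edgeR adjusted p = 0.00488) fell and 0 rose (background 33.2%), and on GW3965 0 passed (background 21.8%). At day 22 on GW3965 Pla2g16, a phospholipase, rose by 1.22 (SE 0.154, adjusted p = 8.26e-05) and was higher than on the standard diet by 0.82 (adjusted p = 0.0391). Alox5, Alox5ap, Ltc4s and Pla2g4a did not pass in these comparisons.

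Of 20 other tuft markers 15 were tested, and at day 70 on either diet 2 rose and 3 fell, where 33.2% of all genes passed on the standard diet and 21.8% on GW3965. The 2 that rose were the same on both diets: Krt23, a keratin (4.18, edgeR adjusted p = 6.69e-05 on the standard diet, and 3.43 on GW3965), and Nebl, which encodes the actin-binding protein nebulette (4.57 and 4.71). On the standard diet Hmx3, a homeobox gene, fell by 4.19 (adjusted p = 0.00402), Inpp5j by 1.54 and Espn by 1.01, and on GW3965 Inpp5j fell by 1.51, Espn by 1.01 and Ly6g6d by 0.98. At day 22 the kinase gene Matk rose on both diets (1.25 and 1.35), and Fam221a rose on GW3965 by 2.08 and was higher than on the standard diet by 2.18 (edgeR adjusted p = 0.0145).

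Another 12 tuft genes are shared with leukocytes, and all were tested. At day 22, 8 rose and 0 fell on each diet (background 7.73% on the standard diet and 12.6% on GW3965), with medians of 1.38 and 1.40 against -0.00105 and 0.0204 over all genes. They included the signalling proteins Vav1 (1.48 and 1.498), Fyb (1.45 and 1.96) and Pik3r5 (1.56 and 1.69), and the GTPase Rac2 (2.44 and 2.23). The leukocyte list summed to 389 to 868 CPM at day 0 and 1323 to 2748 CPM at day 22 on the standard diet, and to 381 to 663 and 2037 to 2670 CPM on GW3965, and its part was not tested.

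At day 70, 3 of the 12 genes of this list rose on the standard diet (background 33.2%) and 6 on GW3965 (background 21.8%). On the standard diet Lrmp (1.08), Skap2 (1.14) and Cd24a (1.09) rose, and on GW3965 Plcg2 (1.23) and 5 genes named by the rule, which were Lrmp (0.86), Vav1 (0.96), Fyb (1.499), Pik3r5 (1.25) and Siglecf (1.60), a lectin that also marks eosinophils, rose. Siglecf had risen by 2.69 at day 22 on GW3965 (SE 0.517, edgeR adjusted p = 0.00208). No gene of the list passed the diet comparison at day 70, where 1.83% of all genes did. In it 6 of 12 had an unadjusted p under 0.05 (edgeR), as did 3204 of all 17063 genes.

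Of 19 genes of the IL-25 circuit 15 were tested, and at day 70 on each diet 5 rose and 0 fell, where 33.2% of all genes passed on the standard diet and 21.8% on GW3965. On both diets these included Il4ra, the receptor chain for IL-4 and IL-13 (1.90 and 2.25), the alarmin Il33 (1.78 and 1.90), its receptor Il1rl1 (4.27 and 4.35) and Gata3, a factor of type 2 lymphocytes that epithelia also express (1.72 and 3.92). The fifth was Areg on the standard diet (1.77) and Stat6 on GW3965 (0.37). Il13, Il5, Il9 and Ptgdr2 did not pass the filter on low counts, and Il9 had no counts in 7 of the 8 groups. All 10 stratified epithelium genes rose at day 70 on each diet, and of 10 tested mast cell and basophil genes 3 rose and 1 fell. Their part in these values was not tested.

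All 10 transcription factors and Notch genes around tuft cell formation were tested, and at day 70 on each diet 3 rose and 1 fell (background 33.2% on the standard diet and 21.8% on GW3965). Runx1 rose at day 70 by 1.95 on the standard diet and 2.23 on GW3965 (edgeR adjusted p = 3.12e-05 and 1.44e-05). Spib, which encodes an ETS factor of tuft cells, M cells and B cells, fell by 3.77 at day 70 on the standard diet (SE 0.756, adjusted p = 0.00111) and was higher on GW3965 by 4.07 at that day (SE 0.799, adjusted p = 0.0197). Of 10 leukocyte genes, 3 were higher on GW3965 at day 70 and 0 lower (median log2 difference 1.85, background 1.83%). At day 70 on the standard diet 1 of these 10 rose and 3 fell (background 33.2%). The part of these cells in the Spib values was not tested. Sox4 (2.10) and Ascl2 (1.80) rose at day 70 on the standard diet, Notch1 (1.13) and Stat6 (0.37) rose on GW3965, and Atoh1, the secretory lineage factor, fell by 1.56 on GW3965 (adjusted p = 0.00637).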

How the data were processed

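For 26 polyA RNA libraries the authors ran Kallisto against GRCm38 cDNA. The deposited files give estimated counts (expected counts, not always whole numbers) and TPM per transcript, without a stated filter. The Kallisto version and the strand setting are not given in the sources used here. Of 119414 transcripts, 116728 were matched by identifier to 35975 genes, and 0.615% to 0.999% of counts per library fell on the others. Counts were summed by gene and rounded. The median total was 20424702 per library. Intervals and floors cover counting error only.

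Genes kept by edgeR's filterByExpr (17063) were normalised by TMM (edgeR 4.0.16, R 4.3.3) and tested with the quasi-likelihood F-test in 1 model of the 8 diet and day groups plus the centred ribosomal percentage, with Benjamini-Hochberg adjustment over all genes and a threshold of 0.05 in 13 comparisons. The study's own edgeR model crossed the percentage of ribosomal RNA with diet and time and used a likelihood ratio test. Here the percentage was additive and was taken over 88 ribosomal protein genes. SE values were derived from the fold change and the F statistic. Log2 CPM used a prior count of 2. No libraries held identical values. On simulated counts for the standard diet at day 70 (17063 genes), 20 of 50 genes with a log2 fold change of 1, 10 of 50 with -1, 41 of 50 with 2 and 36 of 50 with -2 were recovered, with 4 unchanged genes called. The changed genes were drawn from those with a mean of at least 10 counts per library. Recovery at lower counts was not measured.

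Alternatives were DESeq2 1.42.0, voom from limma 3.58.1, no ribosomal term, no filter, an epithelial score as covariate, a replicate block and each library left out. Tables and figures were made with pandas 2.3.3, matplotlib 3.10.9 and numpy 2.4.6 (Python 3.11.15). The tuft cell genes and all lists were chosen with earlier results of these data known. Beyond the 7 genes, at most 25 list genes called in any comparison were named by smallest p, with the 5 genes most correlated with the members' mean. Rgs13, Ptgs1, Inpp5j, Espn, Ly6g6d, Areg, Stat6, Sox4, Ascl2, Notch1 and Plcg2 complete counts given in the text and were named after their values were seen. Some genes that the rule would name are not reported here.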

Additional observations from a re-analysis of the deposited data

Results flagged for a closer look

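The Dclk1 value of GW3965 day 0 replicate 2 after 22 diet days, 14.2 CPM (14.15), stood far from the other 3 libraries of its group, which had 10.04 to 10.5 CPM. Its gap to the nearest of them was 0.90 of the group's whole range. Of 11 sets of 4 day 0 values, 1 gene in 1 diet each, it was the only one past the limit, and chance flags about 1 in 20. Without this library the fall of Dclk1 on the standard diet kept its call, and Dclk1 at day 70 on GW3965 still did not pass.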

How the results depend on the processing

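Low counts limit Trpm5, Sh2d6, Pou2f3, Gfi1b and Il25, for which a difference of a few reads moves the values. The number of tuft cell genes passing at 0.05 changed under these settings, the cause of each change not being tested: at day 22 on the standard diet voom gave 2 instead of 0 (Dclk1 at 0.61 and Trpm5 at -1.32), at day 43 on the standard diet 3 passed without the ribosomal term instead of 0 (Trpm5 at -2.61, Avil at 1.47 and Pou2f3), at day 43 on GW3965 1 passed without that term instead of 0 (Sh2d6 at 1.68), at day 22 on GW3965 0 passed without the filter on low counts instead of 1, at day 70 on the standard diet 4 passed instead of 3 with voom, with the epithelial score (Trpm5 in both) and with Trpm5 counted outside Tssc4, and 2 with Dclk1 counted from upstream starts, and at day 70 on GW3965 2 passed instead of 1 with the epithelial score (Dclk1 at -0.71), with Dclk1 counted without the early-ending pair, or with Trpm5 counted outside Tssc4. For the diets at day 70, 1 passed (Dclk1) instead of 0 without the ribosomal term, with DESeq2 and with the replicate block. Leaving out 1 library at a time gave 0 to 1 at day 22 on GW3965, 0 to 1 for the diets at day 70 and 2 to 3 at day 70 on the standard diet. In these fits the changes at day 70 on the standard diet ranged from -1.52 to -1.36 for Dclk1, 3.95 to 4.12 for Avil and 1.20 to 1.74 for Sh2d6, and that of Avil on GW3965 from 2.70 to 4.14. Same-numbered libraries shared only a number: over 13 pairs the mean correlation of their deviations was -0.0662 (from -0.37 to 0.201). With the replicate block Dclk1 differed between the diets at day 70 by 0.97 (adjusted p = 0.0468), and no other call on a tuft cell gene changed. Over the alternatives listed under the processing, each library left out included, the genes called of all 17063 (26963 without the filter) ranged from 0 to 9394 at day 43 on the standard diet, 10 to 7729 at day 43 on GW3965, 419 to 4030 and 913 to 7410 at day 22 and 4174 to 8325 and 2579 to 4990 at day 70. For the diets they ranged from 5 to 27, 5 to 1335, 2 to 290 and 6 to 1476 at days 0, 22, 43 and 70, and for the change of the diet effect from 0 to 802, 0 to 13 and 0 to 424 at days 22, 43 and 70. No called change reversed its direction.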
